A study of Mus musculus with 7 samples.

Results

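The 39 genes described here encode or control the enzymes that make, modify, activate, store, release and burn fatty acids. They were taken from a fixed list of symbols covering fatty acid synthesis (9 genes), elongation and desaturation (10 genes), activation to acyl-CoA (4 genes), triglyceride assembly (6 genes), lipolysis (3 genes) and mitochondrial beta-oxidation (7 genes). The list was chosen with earlier results of these data known, so its counts against all genes give no independent support. Each symbol was matched to 1 gene of the GENCODE annotation, and the reads of its transcripts were summed. All 39 were among the 52230 genes with matched transcripts and among the 19233 genes that passed the filter on low counts and were tested.

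RNA-seq had been performed on ovarian stromal tissue from mice of the PRKO line (strain PRKO; Pgrtm1Bwo), with 4 WT libraries (genotype PGR +/+, numbered 1 to 4) and 3 KO libraries (genotype PGR -/-, numbered 2 to 4) from littermates. In both genotypes, females of 21 to 27 days (21 to 25 days in the series description) had received 5 IU PMSG and, 44 h later, 5 IU hCG, so every library comes from a gonadotropin-stimulated ovary 8 h after hCG. The ovaries were punctured to deplete granulosa cells and each library was made from tissue pooled from 3 mice, so 1 value is an average over animals. The allele is carried by the whole animal and not by a single ovarian cell type, and the tissue holds stromal, theca, endothelial and immune cells together. Transcripts of granulosa cells and oocytes were also present. In such tissue, fewer cells of a type and less RNA per cell cannot be told apart.

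Fatty acids are built in the cytosol from acetyl-CoA, lengthened and desaturated at the endoplasmic reticulum, and joined to CoA before they are stored as triglyceride or enter the mitochondrion for oxidation. In the ovary, lipid droplets of theca and luteal cells store esterified cholesterol for steroid synthesis, and they also store esterified fatty acids. Polyunsaturated fatty acids made or lengthened from the diet's essential fatty acids are the precursors of prostaglandins, which act at ovulation. The elongation and desaturation arm holds the enzymes that produce arachidonic acid, the precursor of prostaglandin E2.

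Library totals ranged from 47.37 M to 63.42 M reads. Pgr, the targeted gene, had 19.5, 31.0, 21.5 and 16.8 CPM (normalised read counts, scaled to a common library total with TMM factors) in WT 1 to 4 and 6.13, 6.52 and 7.56 CPM in KO 2 to 4. All KO values were lower than all WT values, and the KO mean was 30.3% of the WT mean (log2 fold change -1.72, SE 0.202, edgeR quasi-likelihood adjusted p = 0.0544, DESeq2 adjusted p = 3.77e-15). The libraries' genotypes were therefore separated by the gene that defines them. The 12 granulosa markers summed to 3764.4 to 5683.3 CPM in WT and 4651.6 to 5861.7 CPM in KO. Granulosa cell transcripts therefore remained in the tissue after puncture. Of 12 adipocyte markers, 7 were below 1 CPM in every library, and 3 of these, Adipoq, Lep and Cidec, reached at most 0.355 CPM in any library. The others were higher, with 19.9 to 39.3 CPM for Plin1, 4.85 to 8.32 CPM for Slc2a4 and 1.85 to 4.01 CPM for Retn. Cfd reached 1.44 CPM and Pck1 1.40 CPM in their highest libraries.

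Across the whole set, genes of fatty acid and triglyceride metabolism tended to lie slightly lower in KO, and no gene passed the DEG thresholds. The log2 fold change (KO minus WT) was below 0 for 32 of 39 genes (82.1%), against 50.3% of all genes tested, and its median was -0.12, against -0.001 over all genes. The count of DEGs (adjusted p at most 0.05 and absolute log2 fold change at least 0.5 in edgeR) was 0 of 39, where 0.0104% of all genes tested passed, and DESeq2 also gave 0 of 39, where 0.823% of all genes it tested passed. At an unadjusted p under 0.05 in edgeR, 10 of 39 genes (25.6%) were lower in KO, against a background of 5.1%, and 0 were higher, against 3.84%. The lowest edgeR adjusted p of a member was 0.19, for Mgll. With DESeq2, the tool named for these data, Fads1, Fads2 and Mgll were lower in KO with an adjusted p at or under 0.05, 3 of 39 genes against a background of 0.909%. None of the 3 reached an absolute log2 fold change of 0.5. The DESeq2 count of 3 depended on single libraries: it was 0 without KO 2 or without KO 3, 1 (Fads1) without WT 2 or without WT 3, 2 without WT 1, 3 without WT 4 and 5 without KO 4.

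The groups were fully separated, with every KO library below every WT library, for 4 genes (Fads1, Fads2, Mgll and Thrsp), that is 10.3% of the set against 5.12% of all genes tested. The opposite separation was seen for 0 genes, against 3.93%. Fads1, Fads2 and Mgll were also the genes with an unadjusted p under 0.05 in all 16 other settings of the test, including each of the 7 fits that left out a library. The other 7 genes under that limit lost it in at least 1 setting. Across the set, WT 4 had the highest of the 7 values for 23 of 39 genes (59.0%), against 19.4% of all genes tested, and without WT 4 the count of genes lower in KO at an unadjusted p under 0.05 was 3 in place of 10 and the median was -0.06. KO 3 was the lowest of the 7 libraries for 15 of 39 genes, against 2682 of all 19233 genes tested. Without KO 3, the count of genes lower in KO at that limit was also 3, and without WT 3 it was 5.

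**Figure D1:**
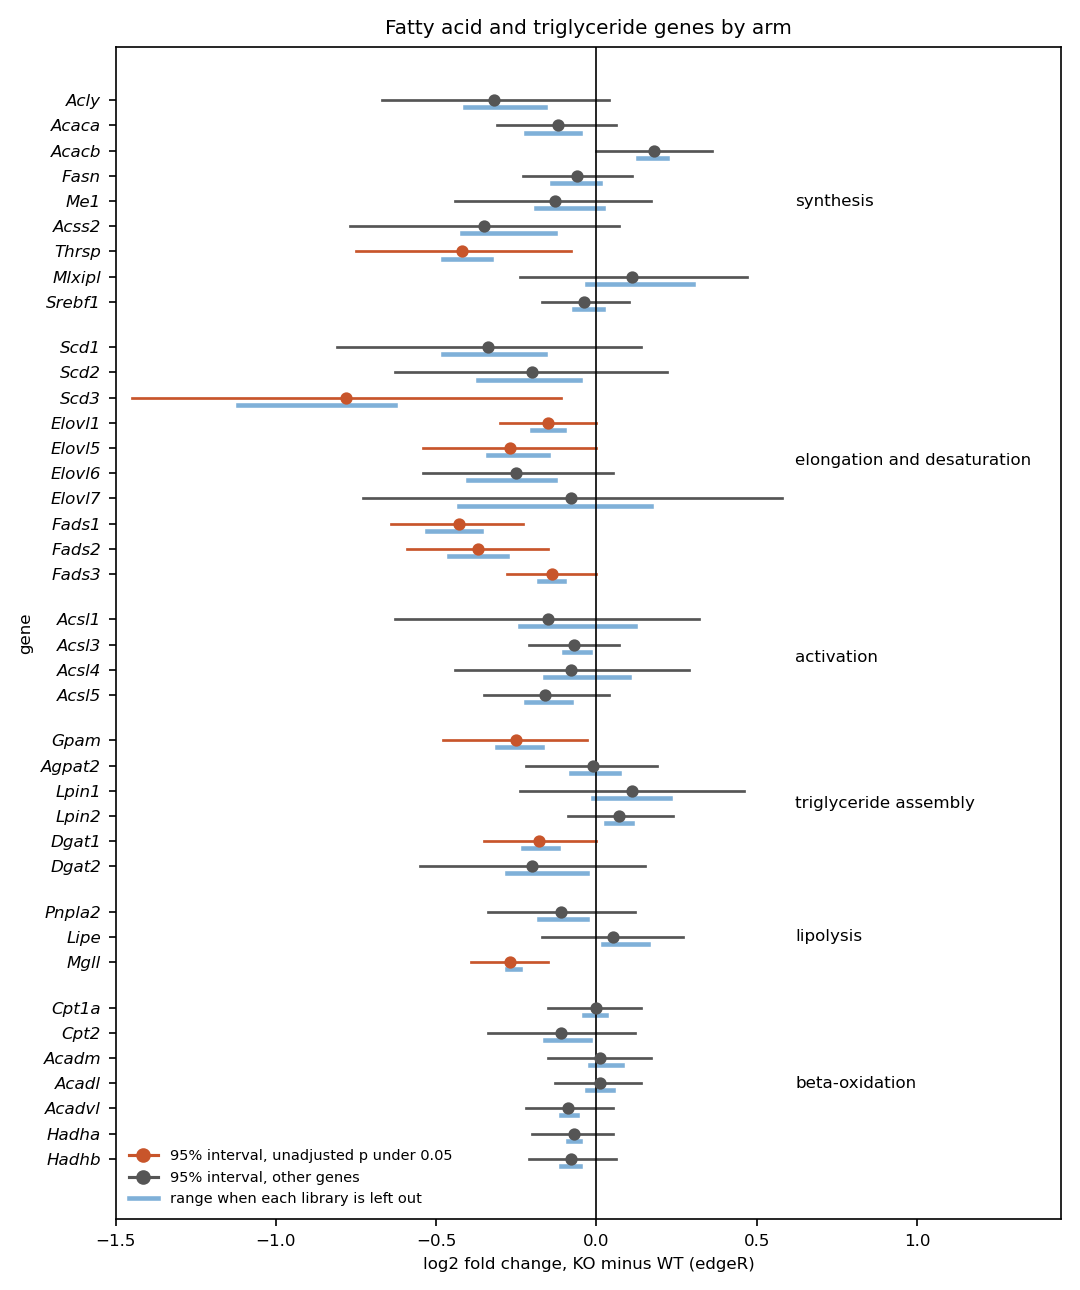
Log2 fold change (KO minus WT, x axis) of the 39 genes (y axis) in their 6 arms. Points and dark or orange lines are the edgeR estimate with its 95% interval, orange marks an unadjusted p under 0.05, and the blue bar below each gene spans the estimates when each library was left out in turn. All 10 genes of elongation and desaturation lie left of 0, and the 7 genes of beta-oxidation lie between -0.11 and 0.01.

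The transcript levels of the 39 genes differed widely, and a few genes made up most of each arm. On the TPM scale (transcript abundance with a common total per library, which corrects for transcript length and allows genes to be compared), Scd2 had the highest mean level over the 7 libraries, at 532.4 TPM, followed by Me1 at 480.0 TPM and Acly at 303.8 TPM. Scd3, Elovl7 and Thrsp were the lowest, at 1.39, 2.59 and 2.82 TPM. Summed over its genes, elongation and desaturation had 1667.8 TPM ± 254.1 (SD, n = 4) in WT and 1428.9 TPM ± 259.9 (SD, n = 3) in KO. The sums of both genotypes overlapped in this arm and in each of the other 5. Beta-oxidation summed to 695.0 TPM ± 36.0 in WT and 701.2 TPM ± 31.3 in KO, and synthesis to 1097.1 TPM ± 180.0 in WT and 1005.1 TPM ± 103.1 in KO (SD, n = 4 and 3). For 6 of the 39 genes (Acacb, Fasn, Elovl7, Fads3, Pnpla2 and Hadha) the transcript with the largest share of the gene's TPM was annotated as something other than protein coding, and short transcripts weigh heavily in TPM, so their levels may overstate the coding message.

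**Figure D2:**
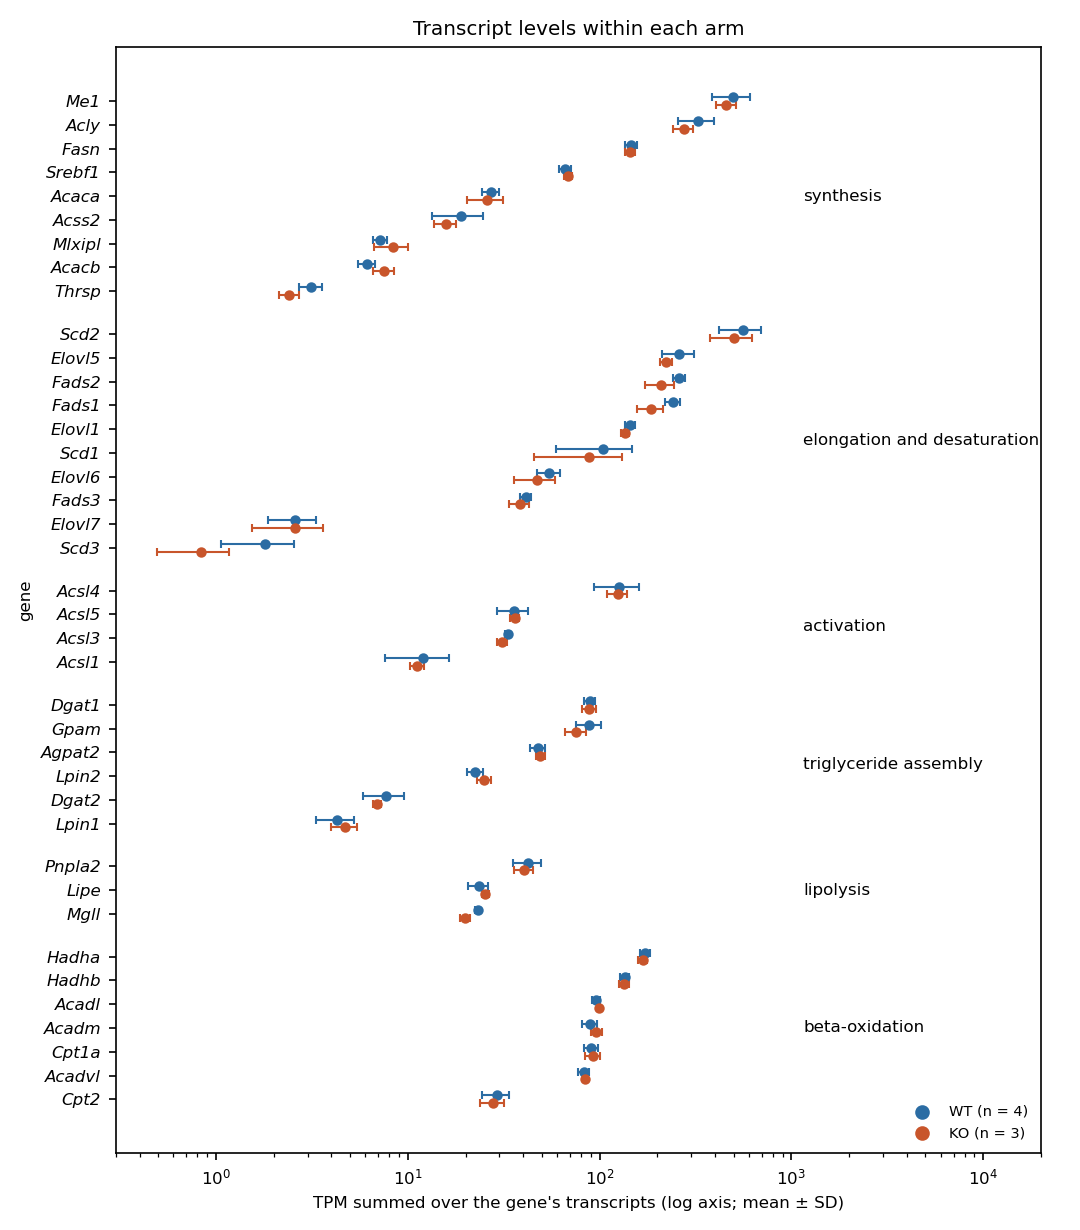
TPM summed over each gene's transcripts (x axis, log scale) for the 39 genes (y axis), ordered by mean level within each arm. Blue points are the mean of 4 WT libraries, orange points the mean of 3 KO libraries, and bars are ± SD. Scd2 and Me1 lead at 532.4 and 480.0 TPM over all libraries, and Scd3 is lowest at 1.39 TPM.

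Elongation and desaturation held most of the genes with a low unadjusted p. All 10 genes had a log2 fold change below 0, the median was -0.26, and 6 genes had an unadjusted p under 0.05 (Scd3, Elovl1, Elovl5, Fads1, Fads2 and Fads3). The front-end desaturases Fads1 and Fads2 were the genes of this arm in which the genotypes did not overlap. Both act in series: Fads2 encodes the delta-6 desaturase, which opens the route from linoleic acid, and Fads1 the delta-5 desaturase, which makes arachidonic acid.

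Fads1 (ENSMUSG00000010663, GRCm39 chr19:10160167-10174241, plus strand) had 493.2, 501.3, 553.2 and 494.1 CPM in WT 1 to 4 and 337.0, 367.0 and 429.0 CPM in KO 2 to 4. The highest KO library stayed below the lowest WT library, and the 3 KO libraries were spread more widely than WT 1, WT 2 and WT 4. The KO mean was 74.0% of the WT mean (log2 fold change -0.43, SE 0.0911, 95% interval -0.64 to -0.23, edgeR unadjusted p = 0.00106, adjusted p = 0.22). DESeq2 gave an adjusted p of 0.00294, and the two-sided exact permutation test over all 35 assignments of the libraries gave p = 0.0286, the smallest this design allows. Leaving out 1 library at a time moved the log2 fold change between -0.53 and -0.36. The transcript Fads1-201 carried 73.3% to 78.0% of the gene's TPM in WT and 65.7% to 78.1% in KO, so the same transcript led in both genotypes.

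Fads2 (GRCm39 chr19:10038130-10079203, minus strand) had 546.0, 489.9, 569.7 and 501.4 CPM in WT 1 to 4 and 356.3, 409.0 and 460.5 CPM in KO 2 to 4. The order of the KO libraries was that of Fads1, with KO 2 lowest and KO 4 highest, and again no KO library reached the lowest WT library. The KO mean was 77.6% of the WT mean (log2 fold change -0.37, SE 0.0973, 95% interval -0.59 to -0.15, edgeR unadjusted p = 0.00459, adjusted p = 0.315, DESeq2 adjusted p = 0.043, exact permutation p = 0.0286). Nearly all of its TPM, 99.9% on average, came from the transcript Fads2-201.

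Fads3, whose product desaturates sphingoid bases, lies beside them (GRCm39 chr19:10018253-10037928, plus strand). It had 51.0, 51.3, 47.9 and 53.9 CPM in WT 1 to 4 and 48.8, 44.1 and 46.1 CPM in KO 2 to 4. KO 2 lay within the WT range, and the log2 fold change was -0.14 (SE 0.0606, edgeR unadjusted p = 0.0465, adjusted p = 0.546). Its unadjusted p stayed under 0.05 in 3 of the 16 other settings. The 3' ends of Fads3 and Fads2 face each other with 201 bases between them, and the starts of Fads2 and Fads1 face away from each other across 80963 bases.

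The stearoyl-CoA desaturases insert the first double bond into saturated fatty acids. Scd2, the most abundant transcript of the set, had 1521.9, 2018.5, 1872.4 and 2569.9 CPM in WT 1 to 4 and 1693.3, 1397.0 and 2113.7 CPM in KO 2 to 4. The genotypes overlapped widely, and the log2 fold change of -0.20 (SE 0.188) had an edgeR unadjusted p of 0.311. Without WT 4 it was -0.05, and without KO 3 -0.06. Scd1 had a log2 fold change of -0.34 (SE 0.208, edgeR unadjusted p = 0.142), which was -0.18 without WT 4, -0.16 without KO 3 and -0.45 without WT 1 (edgeR unadjusted p = 0.0455). Scd3, of much lower level, had 1.83, 3.74, 3.25 and 3.60 CPM in WT 1 to 4 and 1.46, 1.40 and 2.54 CPM in KO 2 to 4. KO 4 lay above WT 1, so the groups overlapped, although Scd3 had the largest difference of the set (log2 fold change -0.78, SE 0.295, edgeR unadjusted p = 0.0266, adjusted p = 0.475). The Scd genes are close paralogs, and reads that fit more than 1 of them are divided by estimation, so the low counts of Scd3 are uncertain beside the high counts of Scd2.

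Among the elongases, Elovl5, which lengthens polyunsaturated fatty acids of the Fads route, had 414.4, 390.8, 458.8 and 564.4 CPM in WT 1 to 4 and 373.2, 372.4 and 391.2 CPM in KO 2 to 4. KO 4 lay just above WT 2, and WT 4 stood well above the other WT libraries. The log2 fold change was -0.27 (SE 0.119, edgeR unadjusted p = 0.0489, adjusted p = 0.554), and it was -0.15 without WT 4. Elovl1, which elongates saturated very long chains, had 109.6, 103.6, 104.2 and 116.7 CPM in WT 1 to 4 and 104.5, 92.8 and 96.4 CPM in KO 2 to 4. Its groups overlapped through KO 2 (log2 fold change -0.15, SE 0.0652, edgeR unadjusted p = 0.0489, adjusted p = 0.554). The unadjusted p of Elovl1 was under 0.05 in 3 of the 16 other settings. Elovl6, which extends palmitate to stearate, had a log2 fold change of -0.25 (SE 0.13, edgeR unadjusted p = 0.0885), and the low-level Elovl7 one of -0.08 (SE 0.289, unadjusted p = 0.794).

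**Figure D3:**
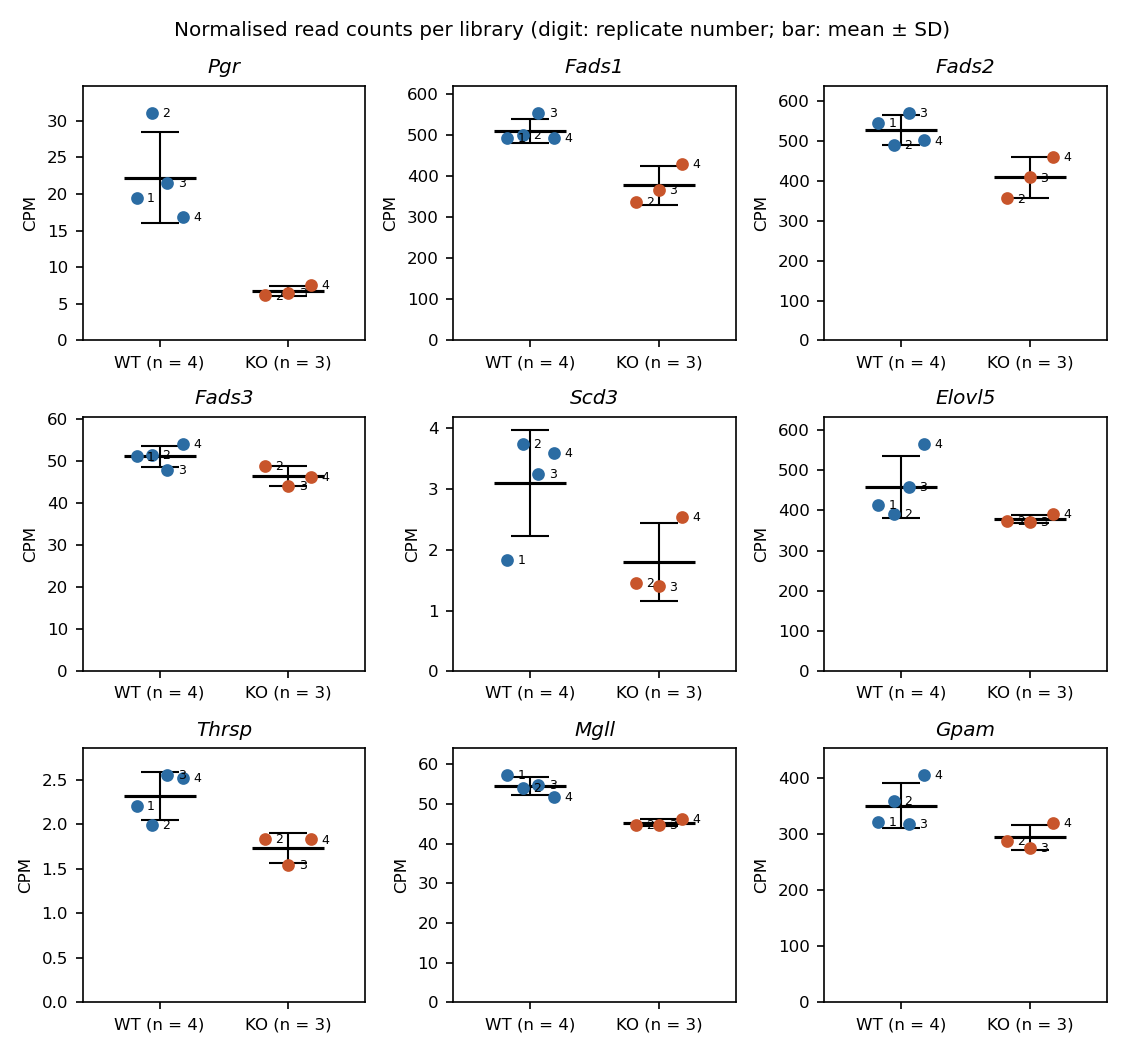
Normalised read counts (CPM, y axis, from 0) of Pgr and 8 genes of the set in the 4 WT libraries (blue) and the 3 KO libraries (orange). Digits are the replicate numbers, the long black line is the mean and the whiskers ± SD. Pgr, Fads1, Fads2, Thrsp and Mgll show no overlap between genotypes, and Fads3, Scd3, Elovl5 and Gpam do.

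PGR is a DNA-binding receptor, and promoter sequences of 5 genes with low KO values are therefore shown. They were read from a RefSeq table on build GRCm38.p6, an older build than that of the gene positions above, and run from 250 bases before the start site to 50 bases after it. The table held 45 promoters of 34 of the 39 genes, and Scd1, Scd2, Fads1, Dgat1 and Dgat2 had no entry. The 5 sequences are those of Fads2 (chr19:10101454-10101753, minus strand), Scd3 (chr19:44203038-44203337, plus strand), Elovl5 (chr9:77917115-77917414, plus strand), Thrsp (chr7:97417501-97417800, minus strand) and the first of 2 entries for Mgll (chr6:88724162-88724461, plus strand). They are written 5' to 3' on the gene's strand, and capitals mark any match to the motifs named after them.
Fads2: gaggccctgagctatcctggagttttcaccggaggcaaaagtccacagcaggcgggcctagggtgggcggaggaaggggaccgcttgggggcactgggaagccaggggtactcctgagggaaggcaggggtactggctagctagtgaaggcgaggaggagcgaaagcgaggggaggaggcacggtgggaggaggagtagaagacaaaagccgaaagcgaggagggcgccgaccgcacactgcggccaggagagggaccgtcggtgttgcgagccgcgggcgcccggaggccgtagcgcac
Scd3: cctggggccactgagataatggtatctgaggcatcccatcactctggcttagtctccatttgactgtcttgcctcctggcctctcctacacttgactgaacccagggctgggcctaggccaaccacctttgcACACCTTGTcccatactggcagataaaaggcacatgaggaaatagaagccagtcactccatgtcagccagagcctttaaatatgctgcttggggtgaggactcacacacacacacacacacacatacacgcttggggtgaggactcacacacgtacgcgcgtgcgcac
Elovl5: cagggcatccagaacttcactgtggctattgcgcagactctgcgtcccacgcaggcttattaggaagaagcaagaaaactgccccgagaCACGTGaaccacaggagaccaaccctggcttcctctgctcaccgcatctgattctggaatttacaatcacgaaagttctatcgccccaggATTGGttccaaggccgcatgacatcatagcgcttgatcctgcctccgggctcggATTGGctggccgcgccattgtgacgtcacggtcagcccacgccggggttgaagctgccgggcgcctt
Thrsp: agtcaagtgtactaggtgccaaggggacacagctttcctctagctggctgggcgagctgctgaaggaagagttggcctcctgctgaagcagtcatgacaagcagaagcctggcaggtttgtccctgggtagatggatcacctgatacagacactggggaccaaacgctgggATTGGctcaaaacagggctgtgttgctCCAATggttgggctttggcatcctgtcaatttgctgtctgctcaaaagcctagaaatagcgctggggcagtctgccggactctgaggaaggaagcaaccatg
Mgll: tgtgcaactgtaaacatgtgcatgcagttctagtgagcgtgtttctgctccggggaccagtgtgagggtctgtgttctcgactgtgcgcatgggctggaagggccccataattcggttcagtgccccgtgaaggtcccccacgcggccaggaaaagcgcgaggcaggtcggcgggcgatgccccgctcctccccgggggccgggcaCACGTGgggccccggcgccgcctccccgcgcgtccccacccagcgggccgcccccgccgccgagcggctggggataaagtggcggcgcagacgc
The motifs searched on both strands were ACANNNTGT (the core shared by progesterone and glucocorticoid receptors), TCACNCCAC (the core of a site for SREBP, the sterol-responsive activator of lipid synthesis), CCAAT (the NF-Y box), CACGTG (the E-box, bound by factors such as ChREBP and SREBP) and the direct repeat bound by PPAR and RXR, and none of the matches printed overlapped another motif. ACANNNTGT was found in 3 of the 45 promoters (6.67%), those of Scd3, Acss2 and Lipe, against 6.85% of all 32851 promoters of the table. TCACNCCAC was found in 2 promoters (4.44%, Mlxipl and Acsl1), against 1.24% of all promoters. CCAAT was found in 18 (40.0% against 37.4%), CACGTG in 5 (11.1% against 7.15%) and the PPAR and RXR repeat in 1 (2.22% against 0.381%, Elovl1). The printed Fads2 promoter held no match to any of the 5, that of Scd3 held ACACCTTGT with its first base 118 bases before the start site, and those of Elovl5 and Mgll each held 1 CACGTG. These are matches of letters in a short window and not binding sites.

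The synthesis arm showed a smaller and less uniform difference. Of its 9 genes, 7 had a log2 fold change below 0, the median was -0.12, and only Thrsp had an unadjusted p under 0.05. Thrsp encodes a small nuclear protein that accompanies lipogenesis. It had 2.21, 1.99, 2.55 and 2.52 CPM in WT 1 to 4 and 1.84, 1.54 and 1.83 CPM in KO 2 to 4. Every KO library was below every WT library, at low counts, and the KO mean was 74.9% of the WT mean (log2 fold change -0.42, SE 0.149, edgeR unadjusted p = 0.0216, adjusted p = 0.449, exact permutation p = 0.0571). The unadjusted p rose above 0.05 without WT 3, without WT 4 and without KO 3.

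Me1, the malic enzyme that supplies NADPH for synthesis, was the most abundant gene of this arm and took 45.0% of its summed TPM in WT. It had 873.1, 900.0, 939.4 and 1279.8 CPM in WT 1 to 4 and 861.5, 901.7 and 963.9 CPM in KO 2 to 4. Apart from WT 4 the values of the genotypes overlapped closely, and the log2 fold change was -0.13 (SE 0.133, edgeR unadjusted p = 0.338) with WT 4 and 0.02 without it. WT 4 was also the highest library for Acly, the ATP citrate lyase that makes cytosolic acetyl-CoA (log2 fold change -0.32, SE 0.156, edgeR unadjusted p = 0.0736), and for Acss2, which makes it from acetate (-0.35, SE 0.185, unadjusted p = 0.093). Without WT 4 these were -0.16 and -0.13. The 95% intervals of the enzymes of the committed steps included 0. The acetyl-CoA carboxylase Acaca had -0.12 (SE 0.0807, edgeR unadjusted p = 0.161), which moved to -0.05 without KO 2 and to -0.22 without KO 4 (edgeR unadjusted p = 0.0091), and the fatty acid synthase Fasn had -0.06 (SE 0.0757, 95% interval -0.23 to 0.11). Acacb, the mitochondrial carboxylase whose product restrains beta-oxidation, was the gene with the highest log2 fold change of the set, 0.18 (SE 0.0796, edgeR unadjusted p = 0.0543), and its unadjusted p was under 0.05 in 9 of the 16 other settings. The lipogenic transcription factors Srebf1 and Mlxipl (ChREBP) had log2 fold changes of -0.04 (SE 0.0584, 95% interval -0.17 to 0.10) and 0.11 (SE 0.157, edgeR unadjusted p = 0.484).

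The 4 acyl-CoA synthetases of the activation arm, which join free fatty acids to CoA, all lay below 0, none of them with an unadjusted p under 0.05. Acsl4, which prefers arachidonic acid, accounted for 60.5% of the arm's TPM in WT. It had 344.0, 410.4, 341.6 and 550.7 CPM in WT 1 to 4 and 399.2, 357.2 and 415.1 CPM in KO 2 to 4. The KO libraries lay inside the WT range, and the log2 fold change was -0.08 (SE 0.161, edgeR unadjusted p = 0.647), or 0.10 without WT 4. Acsl5 had 77.9, 81.9, 80.3 and 97.0 CPM in WT 1 to 4 and 81.4, 72.9 and 72.4 CPM in KO 2 to 4, and its log2 fold change was -0.16 (SE 0.0854, edgeR unadjusted p = 0.0984), or -0.08 without WT 4 and -0.03 with transcript length offsets. Acsl1 (-0.15, SE 0.209) and Acsl3 (-0.07, SE 0.0617) completed it, and Acsl1 turned to 0.12 without WT 4.

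In triglyceride assembly, 2 of 6 genes had an unadjusted p under 0.05, where 5.1% of all genes tested were lower in KO at that limit. Gpam encodes the mitochondrial glycerol-3-phosphate acyltransferase of the first step and had 322.1, 358.5, 317.4 and 404.5 CPM in WT 1 to 4 and 287.3, 275.3 and 319.4 CPM in KO 2 to 4. KO 4 lay just above WT 3, and the other KO libraries lay below all WT libraries (log2 fold change -0.25, SE 0.0976, edgeR unadjusted p = 0.0289, adjusted p = 0.488), and the difference was -0.17 without WT 4 (edgeR unadjusted p = 0.0691). Dgat1, which catalyses the last step and is the most abundant gene of the arm at 88.6 TPM, had 71.1, 62.8, 71.5 and 75.5 CPM in WT 1 to 4 and 65.3, 63.9 and 57.3 CPM in KO 2 to 4. Its groups overlapped through WT 2 (log2 fold change -0.18, SE 0.0758, edgeR unadjusted p = 0.0463, adjusted p = 0.546), and with transcript length offsets the difference was -0.05. The coding transcript Dgat1-201 carried 46.3% to 55.2% of the gene's TPM in WT and 36.5% to 48.4% in KO. Dgat2, which catalyses the same step, had -0.20 (SE 0.155, edgeR unadjusted p = 0.235) and -0.03 without WT 4, the acyltransferase Agpat2 -0.01 (SE 0.0893), and the phosphatidate phosphatases Lpin1 and Lpin2 0.11 (SE 0.154) and 0.07 (SE 0.0742).

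The 3 lipases of lipolysis act in sequence, and the groups were separated for the last of them, Mgll. Mgll encodes monoacylglycerol lipase, which also degrades the endocannabinoid 2-arachidonoylglycerol and releases arachidonic acid. It had 57.2, 54.1, 54.7 and 51.7 CPM in WT 1 to 4 and 44.8, 44.6 and 46.2 CPM in KO 2 to 4. The 3 KO libraries lay close together and below all WT libraries, and WT 4 was here the lowest WT library. The KO mean was 83.0% of the WT mean (log2 fold change -0.27, SE 0.053, 95% interval -0.39 to -0.15, edgeR unadjusted p = 0.000707, adjusted p = 0.19, DESeq2 adjusted p = 0.00887, exact permutation p = 0.0286). Leaving out single libraries kept it between -0.28 and -0.24, the narrowest range among the 10 genes, and the transcript Mgll-204 carried 87.0% to 94.5% of its TPM in WT and 90.0% to 92.0% in KO. The gene lies at GRCm39 chr6:88652108-88805342, plus strand. Pnpla2, the adipose triglyceride lipase of the first step, had 40.6, 49.9, 49.6 and 55.8 CPM in WT 1 to 4 and 44.5, 42.7 and 49.2 CPM in KO 2 to 4. Its KO libraries lay within the WT range (log2 fold change -0.11, SE 0.102, edgeR unadjusted p = 0.318, and -0.03 without WT 4). Lipe, the hormone-sensitive lipase, had a log2 fold change of 0.05 (SE 0.0959, edgeR unadjusted p = 0.606).

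No gene of beta-oxidation had an unadjusted p under 0.05. The 7 genes had log2 fold changes from -0.11 to 0.01, a median of -0.07, and 95% intervals that all lay within -0.34 to 0.17. The interval of Cpt2, -0.34 to 0.12, still held differences of the size seen for Mgll (-0.27) or Gpam (-0.25). Those of the other genes did not, with lower bounds between -0.22 (Acadvl) and -0.13 (Acadl). Of the 7, 5 lay below 0. Hadha, the alpha subunit of the mitochondrial trifunctional protein and the most abundant gene of the arm, had 259.5, 253.5, 268.5 and 269.8 CPM in WT 1 to 4 and 239.6, 251.6 and 257.5 CPM in KO 2 to 4 (log2 fold change -0.07, SE 0.0557, edgeR unadjusted p = 0.213). KO 4 lay within the WT range and the other KO libraries below it. Hadhb, the beta subunit, had -0.08 (SE 0.059). Cpt1a, the carnitine palmitoyltransferase at the gate of the mitochondrion, had a log2 fold change of 0.00 to 2 decimals (SE 0.0633, 95% interval -0.15 to 0.14). Cpt2, its partner on the inner membrane, had 36.7, 39.1, 43.4 and 49.4 CPM in WT 1 to 4 and 37.7, 37.4 and 41.9 CPM in KO 2 to 4, all KO values lying inside the WT range (log2 fold change -0.11, SE 0.101, and -0.02 without WT 4). The acyl-CoA dehydrogenases of medium, long and very long chains, Acadm, Acadl and Acadvl, had 0.01 (SE 0.0707), 0.01 (SE 0.0578) and -0.09 (SE 0.0579).

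**Figure D4:**
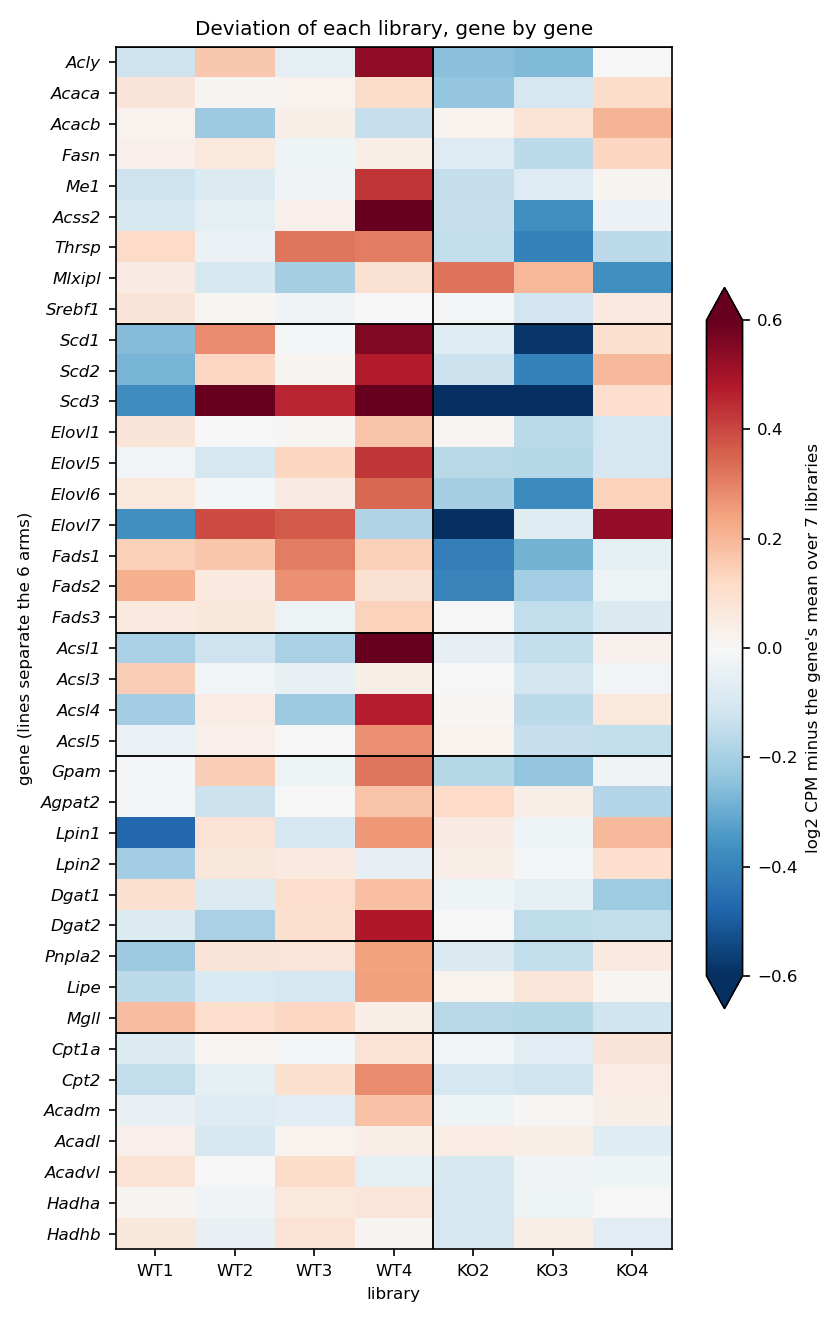
Deviation of each library (x axis) from the gene's mean log2 CPM over the 7 libraries, for the 39 genes (y axis) in their 6 arms. Red is above and blue below the mean, with colours capped at 0.6 in either direction. WT 4 is the highest library for 23 of the 39 genes. These are 3 of 9 synthesis, 6 of 10 elongation and desaturation and 3 of 4 activation genes. The rest are 5 of 6 triglyceride assembly, 2 of 3 lipolysis and 4 of 7 beta-oxidation genes. Fads1, Fads2 and Mgll are above the mean in all 4 WT libraries and below it in all 3 KO libraries.

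The spread within genotypes was structured by library. Relative to each gene's mean over the libraries, the median deviation of the 39 genes was 0.18 in WT 4 and between -0.01 and 0.02 in the other WT libraries, and it was -0.08, -0.14 and 0.00 in KO 2, KO 3 and KO 4. The median deviation of all genes tested lay between -0.01 and 0.00 in every library. In elongation and desaturation the deviations were 0.02, 0.10, 0.09 and 0.26 in WT 1 to 4 and -0.18, -0.24 and 0.03 in KO 2 to 4, so KO 4 lay between WT 1 and WT 2. In beta-oxidation they stayed between -0.10 and 0.07.

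Some of the marker lists for cell types in the tissue also leaned to 1 side in KO, and their part in the results above was not tested. Of all genes tested, 5.1% were lower and 3.84% higher in KO at an unadjusted p under 0.05 in edgeR. The 9 markers of theca and luteal steroidogenic cells all had log2 fold changes below 0, 2 of them with an unadjusted p under 0.05, and their summed level was 14401.6 to 18093.4 CPM in WT and 12396.4 to 13747.2 CPM in KO. These sums did not overlap, although the genotypes overlapped for 8 of the 9 genes, all but Star. WT 4 had the highest sum through Cyp11a1, Star, Hsd3b1, Scarb1 and Fdx1, whereas 3 members of the same list were lowest in WT 4 among the WT libraries: Cyp17a1 (467.4 CPM against 902.7 to 1203.2), Insl3 (20.5 against 39.2 to 48.6) and Aldh1a1 (325.2 against 460.2 to 701.6). Of 6 smooth muscle markers, all lay below 0 and 5 had an unadjusted p under 0.05, with sums of 1919.5 to 2557.8 CPM in WT and 1416.7 to 1932.6 CPM in KO. Of 8 oocyte markers, all lay above 0 and 3 had an unadjusted p under 0.05, with sums of 304.2 to 387.7 CPM in WT and 337.3 to 500.5 CPM in KO. Of 7 endothelial markers 2 and of 8 stromal fibroblast markers 1 were lower at that limit. The 12 granulosa, 10 leukocyte, 5 red blood cell and 12 adipocyte markers (6 of them tested) had none, and the summed adipocyte level, most of it Plin1, was 31.4 to 52.7 CPM in WT and 39.6 to 49.0 CPM in KO.

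A wider list of 107 other genes of the same arms, 97 of them tested, was read in the same libraries. It was chosen with earlier results of these data known, so it gives no independent support. Of the 97, 62 had a log2 fold change below 0 (63.9%, against 50.3% of all genes tested) and the median was -0.04. At an unadjusted p under 0.05, 13 were lower in KO (13.4%, against 5.1%) and 3 were higher (3.09%, against 3.84%). The elongation and desaturation arm again leaned to one side, with 9 of 10 genes below 0, a median of -0.16 and 5 lower at that limit. Hacd2, a dehydratase of the third step of fatty acid elongation, had 50.0, 53.1, 49.5 and 58.1 CPM in WT 1 to 4 and 44.3, 42.1 and 40.8 CPM in KO 2 to 4. The groups did not overlap (log2 fold change -0.31, SE 0.0689, edgeR unadjusted p = 0.00147, adjusted p = 0.237, DESeq2 adjusted p = 0.0233). Its paralog Hacd1 had a log2 fold change of -0.30 (edgeR unadjusted p = 0.00664), and Hsd17b12, the ketoacyl-CoA reductase of the same cycle, one of -0.16 (unadjusted p = 0.0245). The other 2 genes of this arm under the limit, named after their values were seen, were Hacd4 (-0.32, edgeR unadjusted p = 0.0299) and the enoyl-CoA reductase Tecr (-0.16, unadjusted p = 0.0453).

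In the other arms of the wider list, the fatty acid binding protein Fabp4 had a log2 fold change of -0.43 (edgeR unadjusted p = 0.0171), Acad10 one of -0.34 (unadjusted p = 0.0168) and the acyltransferase Agpat5 one of -0.15 (unadjusted p = 0.0252). The 3 genes higher in KO were the fatty acid transporter Slc27a6 (0.29, edgeR unadjusted p = 0.0136), the liver X receptor gene Nr1h2 (0.14, unadjusted p = 0.021) and, named after its value was seen, the acyl-CoA thioesterase Acot2 (0.20, unadjusted p = 0.0478). The remaining genes under the limit, all lower in KO, were Insig1 of synthesis (-0.24), Fabp3 of activation (-0.38) and Echs1, Acadsb and Etfdh of beta-oxidation (-0.16, -0.19 and -0.22), also named after their values were seen. None of these p values passed adjustment over all genes in edgeR. In beta-oxidation 21 of 27 genes of the wider list lay below 0, with a median of -0.06 and 4 lower at that limit, and in lipolysis 6 of 12 lay below 0 with 0 under the limit.

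Of the 39 genes, 9 lie on chromosome 19, among them the 3 Fads and the 3 Scd genes, and 2 lie on chromosome 9, which carries Pgr. The nearer of these 2, Elovl5, starts 68.9 Mb from the start of Pgr.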

How the data were processed

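mRNA of granulosa cell-depleted ovarian tissue was sequenced in 7 libraries (stranded, paired-end, 100 bp). The authors deposited, per transcript, Salmon's expected counts and TPM, made against GENCODE M26 on GRCm39. The Salmon version is not given in the sources used here. TPM had been scaled by the authors' Salmon run with its effective transcript lengths. Transcripts were matched by identifier to GENCODE M39 (137570 of 139225, holding 99.371% to 99.398% of reads), and expected counts were summed per gene and rounded.

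WT and KO were taken from the sample labels and compared with edgeR 4.0.16 in R 4.3.3 (TMM, filterByExpr, quasi-likelihood F test with legacy=TRUE, two-sided). Benjamini-Hochberg adjustment covered all 19233 genes tested, and standard errors came from the F statistic. DEG thresholds were 0.05 for the adjusted p and 0.5 for the log2 fold change in either direction. DESeq2 1.42.0, other size factors and filters, length offsets, a replicate block, protein-coding genes alone and leaving out each library were alternatives. The code was tested on simulated data. Libraries held 47.37 M to 63.42 M reads and the common biological coefficient of variation was 0.127. Counting error adds to it most at low counts, as for Thrsp and Scd3. Each library is a separate pool of mice, as the labels state.

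The 39 genes, the wider list and the marker lists were chosen with earlier results of these data known. All 39 genes are named. Values per library are given for genes with an unadjusted p under 0.05 or separated groups, and for the most abundant and most different gene of each arm. Of the wider list the 8 lowest p values are named. Promoter sequences are RefSeq's on GRCm38.p6.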

Additional observations from a re-analysis of the deposited data

Results flagged for a closer look

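In the WT group of 4 libraries, 7 of the 39 genes had a highest or lowest library whose gap to its nearest neighbour was larger than Dixon's 95% limit for 4 values, where chance marks about 1 in 20 groups. The share of all genes tested that pass this rule was not computed, so the count cannot be read as particular to this set. In 5 of the 7 the library was WT 4 at the high end, with 1279.8 CPM for Me1, 46.4 CPM for Acss2, 44.0 CPM for Acsl1, 43.1 CPM for Lipe and 104.9 CPM for Acadm. WT 3 was high for Fads1 at 553.2 CPM, and without it the log2 fold change of Fads1 was still below 0. WT 2 was low for Acadl at 105.5 CPM. The KO group of 3 libraries is too small for this rule. WT 4 also had the highest summed level of theca and luteal steroidogenic markers, 18093.4 CPM, and the lowest summed level of granulosa markers, 3764.4 CPM, against 14401.6 to 15665.8 CPM and 4151.4 to 5683.3 CPM in the other WT libraries. The steroidogenic sum was carried by Cyp11a1, Star, Hsd3b1, Scarb1 and Fdx1, and Cyp17a1, Insl3 and Aldh1a1 of the same list were instead lowest in WT 4 among the WT libraries, at 467.4, 20.5 and 325.2 CPM. Whether either plays a part in the WT 4 values was not tested.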

How the results depend on the processing

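Of 624 log2 fold changes recomputed for the 39 genes under 16 alternatives, 503 kept their sign and their side of the 0.05 limit, and 31 changed sign, in 12 genes whose log2 fold changes were at most 0.15 in size. The DEG count of 0 became 1 with DESeq2, length offsets and the replicate block together (Scd3), 1 with DESeq2 leaving out WT 1 (Scd3) and 2 leaving out KO 4 (Scd3 and Fads1), the last 2 added after the data were seen. The count of genes lower at an unadjusted p under 0.05, 10, was 6 with at least 10 counts in every library, 6 with protein-coding genes only and between 3 and 10 when single libraries were left out (3 without WT 4, 3 without KO 3, 5 without WT 3). The count of genes higher, 0, was 1 without a low-count filter, with at least 10 counts, with length offsets, with the replicate block, with protein-coding genes only and with DESeq2, length offsets and block together, Acacb in each, and 0 to 1 when single libraries were left out. The median lay between -0.17 and -0.06 throughout. The causes were not tested.

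The replicate numbers were not taken as pairs, since the deviations of same-numbered libraries correlated at -0.00457, 0.14 and 0.0553 over 19233 genes. WT 2 correlated best with KO 4 (0.0307), whereas WT 3 and WT 4 correlated best with the KO library of their own number. Correlations this low cannot decide whether the libraries were paired. With the replicate block, 14 of the 39 genes were lower at an unadjusted p under 0.05, with 0 DEGs and a median of -0.17. Scd1 had the lowest adjusted p in edgeR, 0.0899. Over all genes tested, 26 were DEGs in edgeR with the block, against 2 in the main fit. With DESeq2, length offsets and block together, 7 genes had an adjusted p of at most 0.05 (Acly, Scd1, Scd2, Scd3, Fads1, Fads2 and Gpam). Mgll was not among them (adjusted p of 0.201 in DESeq2, log2 fold change -0.25).

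Changes of sign outside the fits without single libraries were Srebf1 0.01 and Agpat2 0.00 with DESeq2, length offsets and block together, Lpin1 -0.01 with the block and -0.02 with all 3 together, Cpt1a 0.00 without a filter, 0.00 with at least 10 counts and 0.01 with protein-coding genes only, Acadm -0.01 with the block and Acadl -0.01 with length offsets. Without single libraries, the ranges that crossed 0 were -0.14 to 0.01 for Fasn, -0.19 to 0.02 for Me1, -0.03 to 0.30 for Mlxipl, -0.07 to 0.02 for Srebf1, -0.43 to 0.17 for Elovl7, -0.24 to 0.12 for Acsl1, -0.16 to 0.10 for Acsl4, -0.08 to 0.07 for Agpat2, -0.01 to 0.23 for Lpin1, -0.04 to 0.03 for Cpt1a, -0.02 to 0.08 for Acadm and -0.03 to 0.05 for Acadl.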
